A study of Mus musculus with 10 samples.

Results

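The Yippee-like (Ypel) family has 5 genes in the mouse, *Ypel1* to *Ypel5*, and all 5 were found by symbol, through their Ensembl identifiers, among the 52550 genes of the count table. A member with fewer than 10 counts over all libraries was set aside as not measured, which left *Ypel1*, *Ypel2*, *Ypel3* and *Ypel5* as 4 measured members. The comparison asks which Ypel paralogs MLL-AF9 leukemia cells express, and which of them share the rise of *Ypel3* when *miR-139* is switched on. The study named *Ypel3* among the genes upregulated in these libraries, so its higher level is a description here and the starting point for the other members.

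The cells are hematopoietic stem and progenitor cells (HSPCs) from wild-type C57BL/6 mice of 8 to 20 weeks, transformed by a retrovirus with the MLL-AF9 fusion oncogene. They were grown with SCF, GM-CSF and the interleukins IL-6 and IL-3. MLL-AF9-i139 cells carry a retroviral tetR-KRAB repressor, which the study describes only for them, and a lentiviral construct that expresses *miR-139* upon doxycycline (DOX). Each of 3 such clones was sequenced once without DOX and once with DOX at 5 µg/mL, for 48 h in clones 1 and 2 and for 72 h in clone 3, whereas no time is given for the untreated cultures. MLL-AF9-ieGFP cells express eGFP upon DOX instead and are 1 clone, sequenced untreated and with DOX after 48 h and 72 h, so their 4 libraries are cultures of 1 clone and not separate clones. Because clone 3 is the only MLL-AF9-i139 clone treated for 72 h, clone and duration cannot be told apart.

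Yippee-like proteins are small zinc-binding proteins that are conserved from fungi to mammals. *Ypel3* was first described in mouse myeloid cells as a small unstable apoptotic protein that is induced when growth factors are withdrawn, and its human counterpart is known as a p53 target that restrains growth. *Ypel5*, the most divergent member, is a subunit of the CTLH complex, an E3 ubiquitin ligase. *Ypel1*, *Ypel2* and *Ypel4* are close relatives of *Ypel3*, and their proteins localize to the nucleus and the centrosome.

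The depth was 35133308 to 47089725 counts per library, and 3 counts correspond to between 0.0637 and 0.0854 CPM, the counts scaled to a common library total. Markers of the myeloid lineage were uneven over the 10 libraries, with *Mpo*, the granule enzyme myeloperoxidase, at 415 to 1668 CPM and *Spi1*, the myeloid transcription factor PU.1, at 82.2 to 170 CPM. Of the same list, *Itgam*, which encodes the myeloid marker CD11b, had 6 counts in all, under the minimum for a test, and the stem and progenitor marker *Cd34* was at 0 to 0.418 CPM, both chosen after their values were seen. By flow cytometry, the study found MLL-AF9 cells positive for CD11b, so the *Itgam* count does not show that this marker is absent. Summed over a list, markers of B cells stayed between 0.787 and 1.62 CPM, markers of T cells between 2.69 and 5.15 CPM and markers of erythroid cells between 1.34 and 2.43 CPM. The B cell marker *Ms4a1*, the macrophage markers *C1qa* and *C1qc* and the globin genes *Hba-a2*, *Hbb-bs* and *Hbb-bt* were at 0 counts in each library. As for *Itgam*, such a count does not by itself show that a gene is not expressed. The *Mir139* row was also at 0 in each library, and *Pde2a*, its host gene, had a total of 1 count, so these counts do not check the induction of the construct.

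The mature *miR-139* strands are shown because a seed match is the feature through which a miRNA finds a transcript. Their sequences are those of RefSeq on GRCm38.p6, at chr7:101475382-101475403 and chr7:101475418-101475439 on the plus strand, and capitals mark the seed, bases 2 to 8.
miR-139-5p: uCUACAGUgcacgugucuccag
miR-139-3p: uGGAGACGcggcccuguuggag

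The 3′ UTRs of the members were searched for the reverse complement of these seeds. The UTR was the longest one annotated, and a match was either to bases 2 to 8 (ACTGTAG for miR-139-5p and CGTCTCC for miR-139-3p) or to bases 2 to 7 followed by an A (CTGTAGA and GTCTCCA). Of the 5 members, 3 held 1 match each, and these are printed on the transcript's strand with the match in capitals. The sites are at chr16:17084978-17085007 on the plus strand for *Ypel1*, chr11:86937371-86937400 on the minus strand for *Ypel2* and chr17:72849314-72849343 on the plus strand for *Ypel5*.
Ypel1, miR-139-3p: ccagaagtaaagcatGTCTCCAaaaactga
Ypel2, miR-139-5p: aacttcagagtaattACTGTAGttgggaga
Ypel5, miR-139-5p: tcttgttggagaggaACTGTAGcaccagaa

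*Ypel3* and *Ypel4* had no match. The UTR of *Ypel3*, at 398 nt, was the shortest of the family, compared with 2134 nt in *Ypel1*, 4174 nt in *Ypel2*, 870 nt in *Ypel4* and 2391 nt in *Ypel5*, and with a median of 960 nt over 21037 genes. Among these genes, 11.0% held the miR-139-5p match found in *Ypel2* and *Ypel5*, and 12.5% held the miR-139-3p match found in *Ypel1*. The matches found in no member, CTGTAGA and CGTCTCC, were held by 13.7% and 3.2%. The share of genes with any of these matches was not counted. A match is a run of letters and not a tested site.

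The coding sequences separate *Ypel5* from the others. *Ypel1*, *Ypel2* and *Ypel3* were 78.4% to 82.1% identical to each other at the nucleotide level, *Ypel4* was 71.1% to 74.3% identical to these 3, and *Ypel5* was 49.3% to 51.9% identical to the other 4. The longest identical run between any 2 members was 25 nt, between *Ypel1* and *Ypel3*. The coding sequence was 354 nt long in *Ypel1*, 357 nt in *Ypel2* and *Ypel3*, 381 nt in *Ypel4* and 363 nt in *Ypel5*.

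The genes are spread over 5 chromosomes. In GENCODE M21 on GRCm38, *Ypel1* (ENSMUSG00000022773) is at chr16:17069696-17087045, *Ypel2* (ENSMUSG00000018427) at chr11:86936425-86993707, *Ypel3* (ENSMUSG00000042675) at chr7:126776955-126780514, *Ypel4* (ENSMUSG00000034059) at chr2:84734058-84738655 and *Ypel5* (ENSMUSG00000039770) at chr17:72836453-72851195. *Ypel2* lies on the minus strand and the other 4 on the plus strand. *Ypel1* overlaps *Ppil2* and the pseudogene *Gm9974*, both on the opposite strand, with 15.1% of its exon bases. Whether reads were counted by strand is not given in the sources used here, so a part of the *Ypel1* count could belong to *Ppil2*, a cyclophilin-like gene with 24314 counts in all compared with 2199 for *Ypel1*.

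*Ypel3* was the member with the largest difference between MLL-AF9-i139 cells with and without DOX. Without DOX, it was at 3.33, 3.27 and 2.46 CPM in clones 1, 2 and 3, from 162, 143 and 97 counts. With DOX, it was at 38.8, 36.1 and 4.57 CPM, from 1857, 1421 and 180 counts. Each treated library was above all 3 untreated ones, but clones 1 and 2 were far higher than clone 3, whose level was close to the untreated range. The fold was 11.5 in clone 1, 10.9 in clone 2 and 1.84 in clone 3. In bulk RNA, a change in the share of cells that express a gene and a change in RNA per cell cannot be told apart.

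In the fit of the 6 MLL-AF9-i139 libraries, the log2 fold change of *Ypel3* was 3.15 (SE 0.68, 95% interval 1.58 to 4.72, edgeR adjusted p = 0.0997), which missed the threshold of 0.05. The clones pair the treated and untreated libraries, and once the clone was a block the log2 fold change was 2.78 (SE 0.50, 95% interval 1.61 to 3.96), which passed (edgeR adjusted p = 0.027). Without clone 3 it was 3.53 (SE 0.13, edgeR adjusted p = 2.10e-05), in a fit that called 3981 of 18359 tested genes. It did not pass without clone 1 (2.83, edgeR adjusted p = 0.679) or without clone 2 (2.92, edgeR adjusted p = 0.742).

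*Ypel5*, the CTLH subunit, had a smaller difference than *Ypel3*, and one that was similar in the 3 clones. It was at 50.7, 43.8 and 44.3 CPM without DOX and at 81.8, 67 and 61.7 CPM with DOX in clones 1, 2 and 3. The treated and untreated libraries did not overlap, and clone 3 was closer to the other clones than for *Ypel3*, with folds of 1.61, 1.53 and 1.39. The log2 fold change was 0.62 (SE 0.13, 95% interval 0.31 to 0.92, edgeR adjusted p = 0.099). Blocked by clone, it was 0.61 (SE 0.09, 95% interval 0.40 to 0.81), which passed (edgeR adjusted p = 0.0205).

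*Ypel2* did not pass in either fit, and its treated and untreated libraries overlapped. It was at 4.21, 3.06 and 3.27 CPM without DOX and at 8.19, 7.16 and 3.5 CPM with DOX. Clones 1 and 2 were 1.93 and 2.32 times their untreated level, and clone 3 stood at 1.07 times. The log2 fold change was 0.86 (SE 0.32, 95% interval 0.11 to 1.60, edgeR adjusted p = 0.196), and blocked by clone it was 0.79 (SE 0.23, edgeR adjusted p = 0.0654). Without clone 3 it was 1.10 and passed (edgeR adjusted p = 0.0132). It did not pass without clone 1 (0.76, edgeR adjusted p = 0.697) or without clone 2 (0.66, edgeR adjusted p = 0.75).

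*Ypel1* behaved much like *Ypel2* in each clone. It was at 5.12, 4.02 and 4.08 CPM without DOX and at 8.37, 7.98 and 4.29 CPM with DOX. Clone 3 with DOX was below clone 1 without it, so the groups overlapped. The log2 fold change was 0.66 (SE 0.28, 95% interval 0.02 to 1.30, edgeR adjusted p = 0.232), with the clone as a block 0.62 (SE 0.20, edgeR adjusted p = 0.0851) and without clone 3 0.86 (SE 0.21, edgeR adjusted p = 0.0221). It did not pass without clone 1 (0.60, edgeR adjusted p = 0.709) or without clone 2 (0.48, edgeR adjusted p = 0.764). *Ppil2*, which shares exon bases with *Ypel1*, had a log2 fold change of 0.25 (SE 0.16, edgeR adjusted p = 0.408).

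*Ypel4* was not measured. It had 1 count each in clones 1 and 3 without DOX and 0 in the other 8 libraries, all under the limit of 3 counts, so its response to DOX was not detectable at this depth.

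**Figure D1:**
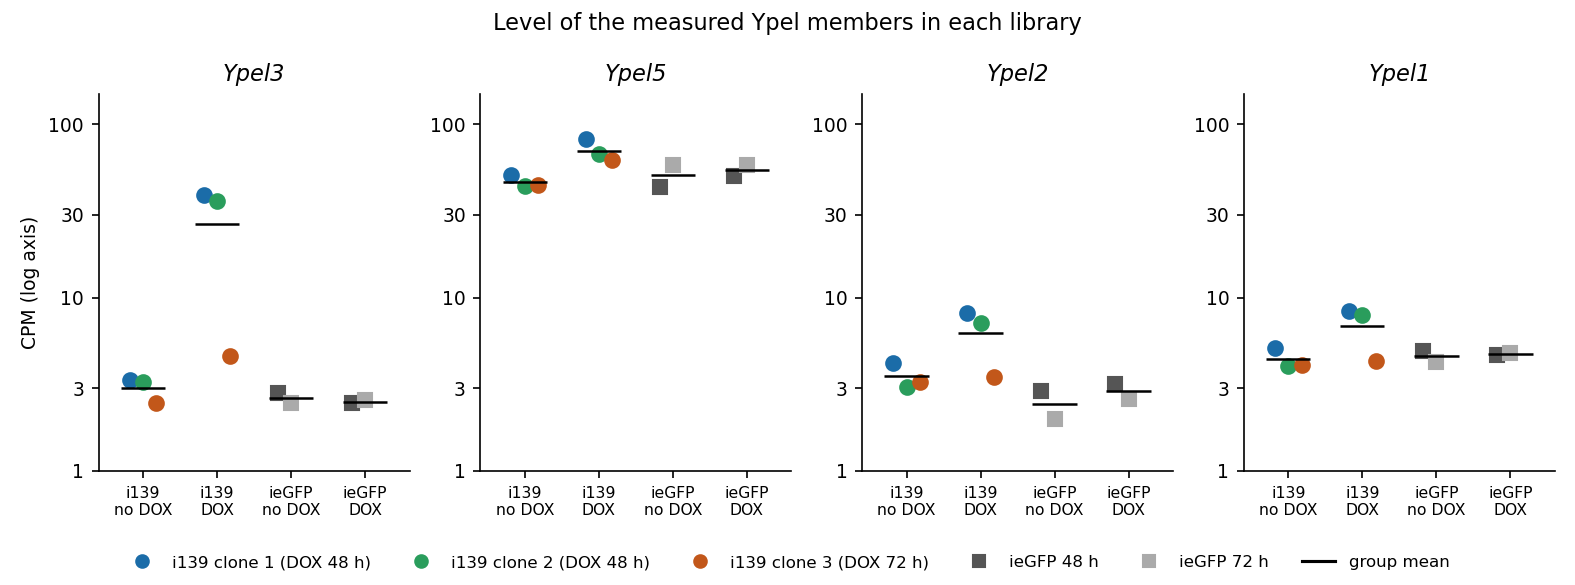
Level of each measured Ypel member in every library, in CPM on a log axis. Points are single libraries (circles for MLL-AF9-i139 clones, squares for the MLL-AF9-ieGFP cultures) and lines are group means. For *Ypel3*, the 2 clones treated for 48 h stand at 38.8 and 36.1 CPM and the clone treated for 72 h at 4.57 CPM, while *Ypel5* is at 61.7 to 81.8 CPM in the same 3 libraries.

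Counted over the family, 0 of the 4 measured members were called as higher without the block, where 11 of 19223 tested genes (0.0572%) were. With the clone as a block, 2 of 4, *Ypel3* and *Ypel5*, were called as higher, compared with 7.05% of the tested genes. These were the same members that DESeq2 called (adjusted p = 0.00439 for *Ypel3* and 0.00508 for *Ypel5*, with 5.03% of the tested genes called as higher). They were also the members whose treated libraries all lay above the untreated ones, as held for 11.8% of the tested genes. The study had named the rise of *Ypel3* from these same libraries, so its place in these counts was given beforehand. Among the other measured members, only *Ypel5* was called.

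The members can be placed among the 10829 tested genes with an average log2 CPM of at least 1, ranked by their change in each clone. *Ypel3* had rank 20 from the highest in clone 1, rank 20 in clone 2 and rank 132 in clone 3. *Ypel2* had ranks 556, 345 and 3449, and *Ypel1* had ranks 948, 553 and 3958. In clone 3, 68.2% of genes were below *Ypel2* and 63.4% were below *Ypel1*, so these 2 members were inside the bulk of genes there. *Ypel5* had ranks 1000, 1296 and 549, so its place was highest in clone 3, the reverse of the other members. The median change of all these genes lay between -0.02 and 0.00 on the log2 scale in the 3 clones. In the same ranking of MLL-AF9-ieGFP, at 48 h and 72 h, *Ypel2* had ranks 1323 and 295 and *Ypel5* had ranks 711 and 6295. There, *Ypel1* had ranks 7416 and 1739 and *Ypel3* had ranks 10062 and 4847. *Ypel2* at 72 h was thus nearer the top than in any of the 3 clones, and *Ypel5* at 48 h nearer than in clones 1 and 2. A rank does not give the size of a change. The log2 change of *Ypel2* at 72 h was 0.38, compared with 0.95, 1.21 and 0.10 in clones 1, 2 and 3. That of *Ypel5* at 48 h was 0.22, compared with 0.69, 0.61 and 0.48 in these clones.

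The rise of *Ypel3* exceeded that of each paralog. In clones 1 and 2, the log2 change of *Ypel3* was 2.23 to 2.83 higher than that of any other measured member. In clone 3 it was 0.81 higher than that of *Ypel1*, 0.78 higher than that of *Ypel2* and 0.41 higher than that of *Ypel5*. These differences between members were not tested.

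**Figure D2:**
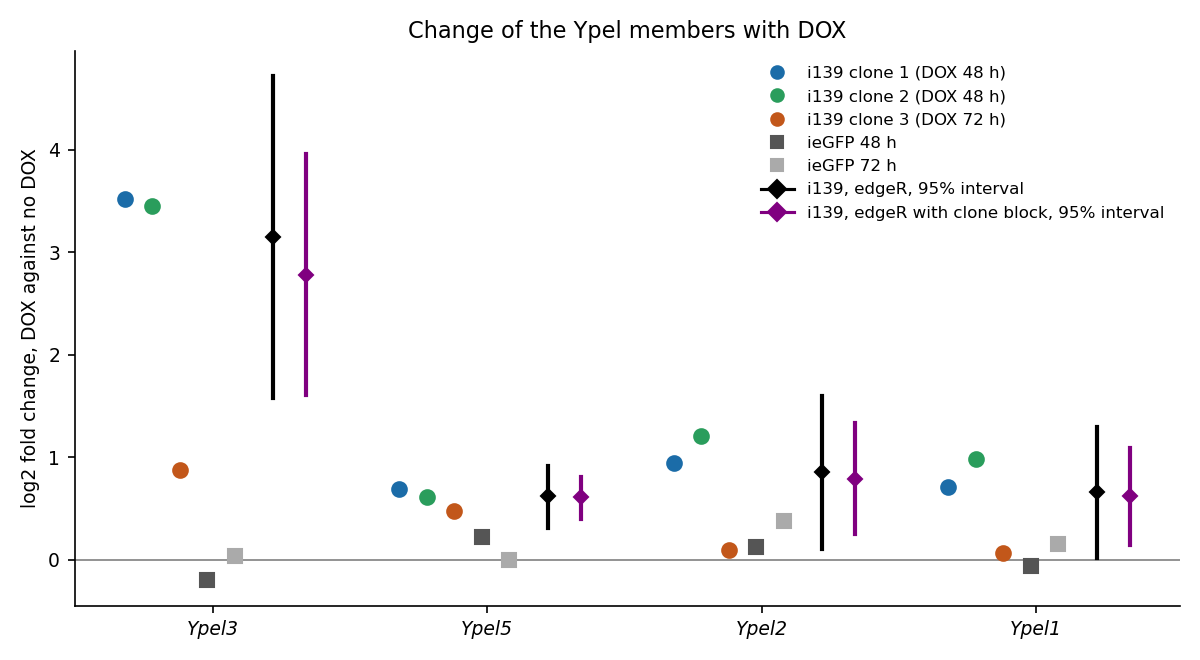
Log2 fold change with DOX of each measured member. Circles are the 3 MLL-AF9-i139 clones, squares the 48 h and 72 h cultures of MLL-AF9-ieGFP, and diamonds with lines the edgeR estimate in MLL-AF9-i139 with its 95% interval, without and with the clone as a block. Clone 3 lies at 0.88 for *Ypel3*, 0.48 for *Ypel5*, 0.10 for *Ypel2* and 0.07 for *Ypel1*.

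In MLL-AF9-ieGFP cells, where DOX induces eGFP, no member was called. *Ypel3* was at 2.81 and 2.48 CPM without DOX and at 2.45 and 2.56 CPM with DOX, at 48 h and 72 h. *Ypel5* was at 43.2 and 58.4 CPM without DOX and at 50.4 and 58.4 CPM with DOX. These *Ypel5* levels differed more between the 2 untreated cultures than between cultures with and without DOX of the same time.

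*Ypel1* was at 4.9 and 4.25 CPM without and at 4.69 and 4.76 CPM with DOX in MLL-AF9-ieGFP, and *Ypel2* at 2.9 and 1.99 CPM without and at 3.19 and 2.61 CPM with DOX. In the fit of all 10 libraries, the log2 fold change was -0.08 for *Ypel3* (95% interval -1.66 to 1.49), 0.10 for *Ypel5* (-0.29 to 0.48), 0.24 for *Ypel2* (-0.59 to 1.07) and 0.05 for *Ypel1* (-0.62 to 0.71), with an edgeR adjusted p of 1 for each. The fit shares 1 estimate of the spread with the MLL-AF9-i139 clones, and the interval of *Ypel3* spans changes of more than 1 in both directions. Of 20269 tested genes, 0 (0%) were called by edgeR in MLL-AF9-ieGFP, with 259 at an unadjusted p under 0.05 and 1 called by DESeq2.

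The lowest MLL-AF9-i139 library with DOX was above all 7 other libraries for *Ypel3* and for *Ypel5*. For *Ypel5* the margin was small. Clone 3, treated for 72 h, was at 61.7 CPM, and the 72 h cultures of MLL-AF9-ieGFP were at 58.4 CPM with and without DOX. The part of culture time in this difference was not tested. For *Ypel2*, 6 of the 7 others were below the lowest treated MLL-AF9-i139 library, and for *Ypel1* 3 of 7. How many of all tested genes stood above all 7 was not counted. Against the untreated MLL-AF9-i139 libraries alone, the treated ones were all higher for 11.8% of the tested genes. The interaction, which is the change in MLL-AF9-i139 minus that in MLL-AF9-ieGFP, was 3.22 on the log2 scale for *Ypel3* (SE 0.92, 95% interval 1.19 to 5.25, edgeR adjusted p = 0.527) and 0.51 for *Ypel5* (SE 0.22, 95% interval 0.01 to 1.00, edgeR adjusted p = 0.54). It was 0.60 for *Ypel1* (95% interval -0.25 to 1.45) and 0.60 for *Ypel2* (95% interval -0.46 to 1.66), with edgeR adjusted p of 0.645 and 0.701. None passed, and of all tested genes 0.00493% did. Without clone 3 the interaction of *Ypel3* was 3.62 and passed (edgeR adjusted p = 7.33e-06), whereas those of the other 3 members did not. That fit called 2011 of 19753 tested genes. The interaction of *Ypel3* did not pass without clone 1 (2.92, edgeR adjusted p = 0.908) or without clone 2 (2.99, edgeR adjusted p = 0.901). The interaction and the change in MLL-AF9-i139 use the same 6 libraries and are not independent of each other.

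Members were compared with each other only per length, as CPM per kb of exon. Without DOX, the MLL-AF9-i139 clones held *Ypel5* at 11.1 ± 0.924 CPM per kb (SD, n = 3), *Ypel3* at 1.63 ± 0.264, *Ypel1* at 0.951 ± 0.133 and *Ypel2* at 0.725 ± 0.127. *Ypel5* made up 77% ± 1.37 of the family sum and *Ypel3* 11.4% ± 1.51. The ranges of *Ypel1* and *Ypel2* overlapped, although *Ypel1* was above *Ypel2* in 3 of 3 libraries, and the other neighbours in this order did not overlap. MLL-AF9-ieGFP cells had the same order of the 4 members with and without DOX.

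With DOX, the top of this order depended on the clone. *Ypel3* was at 21 and 19.5 CPM per kb in clones 1 and 2, compared with 19.6 and 16 for *Ypel5* in the same libraries. In clone 3, *Ypel3* was at 2.47 CPM per kb and *Ypel5* at 14.7. With the longest transcript as the length in place of all exons, *Ypel3* was below *Ypel5* in clone 1 (24.3 compared with 26.2) and above it in clone 2 (22.6 compared with 21.5), so the order of these 2 members in the 48 h clones is not settled. *Ypel3* with DOX made up 37.1% ± 20.8 of the family sum (SD, n = 3), from 13.1% in clone 3 to 50.4% in clone 2.

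The family sum was 15.9, 13.7 and 13.5 CPM per kb without DOX and 44, 38.7 and 18.9 with DOX in clones 1, 2 and 3. The MLL-AF9-ieGFP cultures had 13.5 and 16.6 untreated and 15 and 16.9 with DOX. Clones 1 and 2 with DOX stood apart from the other 8 libraries, and clone 3 with DOX was the next, 18.9 compared with 16.9 in the highest of the remaining 7.

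**Figure D3:**
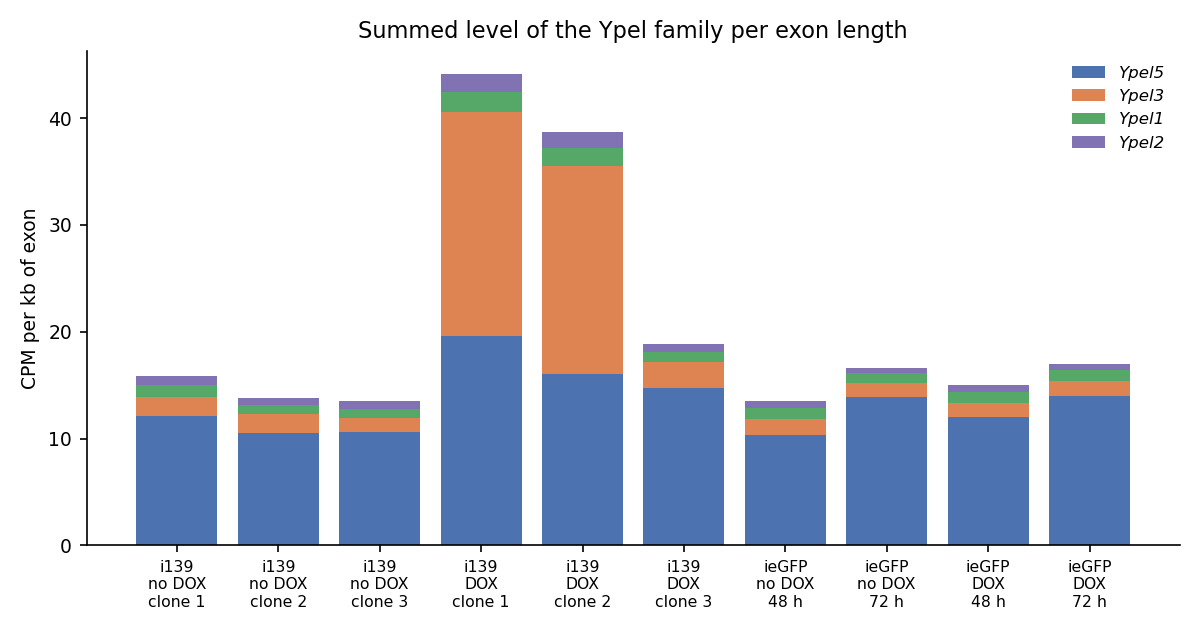
Summed level of the 4 measured Ypel members in each library, in CPM per kb of exon, stacked by member. *Ypel5* makes up most of each bar except in clones 1 and 2 with DOX, where the sum is 44 and 38.7 and *Ypel3* adds 21 and 19.5 per kb of all exons.

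Promoters are shown for *Ypel3* and for *Ypel2*, the member whose coding sequence is most similar to it. The sequences are the bases of the RefSeq promoter windows on GRCm38.p6 that lie before the transcript start, at chr7:126776713-126776954 on the plus strand for *Ypel3* and chr11:86993806-86994012 on the minus strand for *Ypel2*. Capitals mark CCAAT boxes (CCAAT, here on the opposite strand) and GC boxes (GGGCGG), which bind general activators of transcription.
Ypel3: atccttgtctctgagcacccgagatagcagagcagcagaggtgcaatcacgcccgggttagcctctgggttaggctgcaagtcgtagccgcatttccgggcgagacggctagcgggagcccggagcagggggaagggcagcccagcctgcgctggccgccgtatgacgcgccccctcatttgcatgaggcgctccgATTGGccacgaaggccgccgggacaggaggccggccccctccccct
Ypel2: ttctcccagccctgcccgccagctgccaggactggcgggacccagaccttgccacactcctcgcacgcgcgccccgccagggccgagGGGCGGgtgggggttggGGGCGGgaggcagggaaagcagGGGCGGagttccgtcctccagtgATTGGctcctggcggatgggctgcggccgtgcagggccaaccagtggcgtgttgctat

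On either strand of the whole RefSeq windows, each of the 5 members held a CCAAT box, as did 37.4% of 32851 promoters. GC boxes were found 3 times each for *Ypel1* and *Ypel2* and 5 times in the first window of *Ypel5*, but not in the windows of *Ypel3* and *Ypel4*, compared with 35.7% of all promoters. The forkhead core GTAAACA, a motif of FOXO proteins, matched once in the family, in the window of *Ypel3* after the transcript start, compared with 3.6% of all promoters. No window held a p53 half-site, compared with 8.4% of all promoters. These letters in these windows say nothing about binding elsewhere.

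The genes around the members were examined to see whether a member moved with its neighbours. *Gm9967*, 137 nt before *Ypel3* on the opposite strand, had a log2 fold change of 0.58 (SE 0.52, edgeR adjusted p = 0.561) from 80 counts in all. *Tbx6*, a T-box transcription factor gene 969 nt after *Ypel3*, had 0.77 (SE 0.25, edgeR adjusted p = 0.15) and passed with the clone as a block (edgeR adjusted p = 0.0389). Of the 31 other tested genes that start within 200 kb of *Ypel3*, 0 were called without the block and 6 with it, 4 of them higher, compared with 12.4% of all tested genes called in either direction and 7.05% called as higher. Their median log2 fold change was 0.22, compared with 0.01 over all tested genes.

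*Mapk3*, which encodes the kinase ERK1, and *Coro1a*, a regulator of actin in leukocytes, are among these 4 and were chosen after their values were seen. *Mapk3*, which starts 17.4 kb before *Ypel3*, averaged 58.6 CPM without and 117 CPM with DOX, with log2 changes of 1.17, 1.16 and 0.44 in the 3 clones. *Coro1a*, on the same side and further away, had 1.47, 1.44 and 0.48. *Ppp4c*, a phosphatase gene beyond *Tbx6* that was also chosen after its value was seen, had a log2 fold change of 0.08 (SE 0.11).

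Around the other members, the median log2 fold change was -0.22 over 13 genes for *Ypel1*, -0.24 over 8 genes for *Ypel2* and 0.03 for the single tested gene near *Ypel5*, *Lbh*. With the clone as a block, 0 of these genes were called as higher and 1 as lower, the phosphatase gene *Ppm1f* near *Ypel1* (log2 fold change -0.61, edgeR adjusted p = 0.0238), named after its value was seen, compared with 7.05% and 5.33% of all tested genes. The helicase gene *Dhx40*, the nearest annotated gene past the 3′ end of *Ypel2* at 128679 nt, had 0.26 (SE 0.19, edgeR adjusted p = 0.459), and *1700056N10Rik*, before *Ypel1*, had 0.17 (SE 0.27, edgeR adjusted p = 0.759). Beside *Ypel4*, which was not measured, the RNA kinase gene *Clp1* had -0.03 (SE 0.15, edgeR adjusted p = 0.947). Of the other nearest or overlapping genes, *Gm22387*, *Mir130a* and *Gm9974* had 0 counts, *Gm26963* had 3 counts in all, and *Gm49584* was not analysed here.

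**Figure D4:**
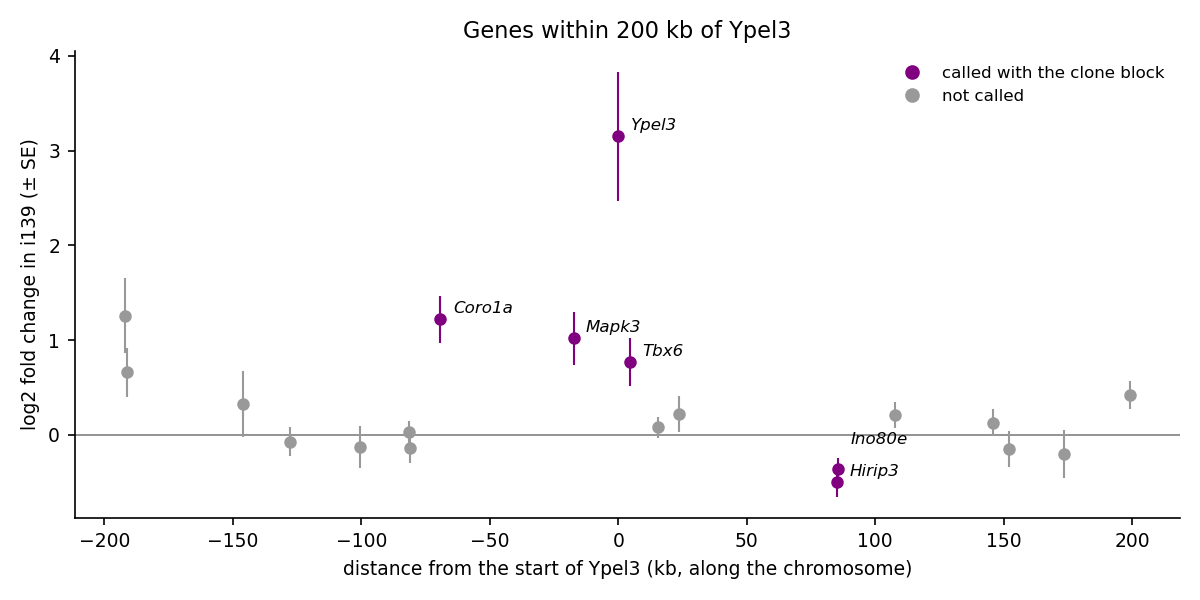
Log2 fold change in MLL-AF9-i139 with its standard error for *Ypel3* and the genes with an average log2 CPM of at least 1 within 200 kb, against the distance from the start of *Ypel3* in kb. Purple points passed with the clone as a block: *Coro1a*, *Mapk3*, *Ypel3* and *Tbx6* above 0 and *Ino80e* and *Hirip3*, named after their values were seen, below it.

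*Ypel5* acts within the CTLH complex, so the genes of that complex were set beside it. Of 11 CTLH genes, all tested, 0 passed in either direction without and with the block, and their median log2 fold change was 0.13, compared with 0.01 over all tested genes. The ubiquitin-conjugating enzyme gene *Ube2h* averaged 46.7 CPM without and 71.9 CPM with DOX, with log2 changes of 0.88, 0.89 and 0.01 in clones 1, 2 and 3 (edgeR adjusted p = 0.134, with the block 0.067). The scaffold gene *Ranbp10* had a log2 fold change of 0.38 (SE 0.16), *Wdr26* 0.27 (SE 0.12) and the substrate receptor gene *Gid4* -0.18 (SE 0.19).

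Genes with a related protein fold did not pass either. *Mis18a* and *Oip5*, which encode subunits of the Mis18 complex that loads centromeric histones, had log2 fold changes of -0.08 (SE 0.13) and -0.29 (SE 0.20). *Crbn*, the substrate receptor cereblon, had -0.04 (SE 0.15).

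*Ypel3* is known for its response to p53 and to cytokine withdrawal, and other genes of these responses were examined. Of 20 p53 targets, 18 were tested, of which 0 were called without the block and 5 were called as higher with it, compared with 7.05% of all tested genes, with a median log2 fold change of 0.20. The cell cycle inhibitor *Cdkn1a* averaged 46.3 CPM without and 144 CPM with DOX, with log2 changes of 1.87, 2.04 and 0.55 in the 3 clones (edgeR adjusted p = 0.1, with the block 0.0271). *Trp53inp1*, a p53-induced cofactor of apoptosis, had a log2 fold change of 1.92 (SE 0.47, with the block edgeR adjusted p = 0.0238), the antiproliferative gene *Btg2* 1.59 (SE 0.45, with the block 0.0245) and the stress gene *Sesn2* 0.74 (SE 0.19, with the block 0.0339). Of the 18 tested, 14 had a log2 fold change above 0. Other targets, named after their values were seen, were *Mdm2* at 0.24, *Bax* at 0.20, *Bbc3* at 0.19, *Pmaip1* at -0.30 and *Aen* at -0.34. None of these was called in either fit. *Cdkn1a*, *Trp53inp1* and *Btg2* were named by the study from these same libraries, so these counts are not independent evidence of a direction.

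Of 20 genes of cytokine withdrawal and quiescence, 19 were tested, of which 0 were called without the block and 6 were called as higher with it, compared with 7.05% of all tested genes, with a median log2 fold change of 0.45. *Bmf*, a pro-apoptotic BH3-only gene, had log2 changes of 1.82, 1.67 and 0.25 in clones 1, 2 and 3, the cell cycle inhibitor *Cdkn2d* 2.07, 1.75 and 0.26, and the stress gene *Sesn3* 2.41, 2.60 and 1.32. As for *Ypel3*, the change in these 3 genes was smallest in clone 3. Both *Bmf* and *Cdkn2d* were also named by the study, as was *Btg2*, which is in this list and among the p53 targets and is counted as called in both. Of the 19 tested, 16 had a log2 fold change above 0, and *Cdkn1c*, named after its value was seen, had -0.67. *Txnip* in this list and *Perp* among the p53 targets were listed at 0 in each library.

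Genes of granulocyte maturation also had a higher summed level with DOX in MLL-AF9-i139. It was 259 to 350 CPM without and 375 to 624 CPM with DOX in MLL-AF9-i139, and 449 to 514 CPM without and 434 to 551 CPM with DOX in MLL-AF9-ieGFP. Of 12 genes, 10 were tested, of which 0 were called without the block and 5 were called as higher with it, compared with 7.05% of all tested genes, with medians of 0.59, 0.80 and 0.74 in clones 1, 2 and 3. The chemokine receptor gene *Cxcr2* had log2 changes of 4.89, 4.60 and 1.50, the granule gene *Lcn2* 2.00, 2.04 and 0.99, the granule gene *Ngp* 1.00, 1.72 and 1.27 and the cytokine receptor gene *Csf3r* 1.44, 1.39 and 0.94. The calprotectin genes *S100a8* and *S100a9*, named after their values were seen, had log2 fold changes of 0.27 and 0.01 and were not called. The part of such genes in the change of the Ypel members was not tested.

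Of 11 genes of myeloid progenitor identity, 10 were tested, of which 0 were called without the block, and 4 were called as higher and 1 as lower with it, compared with 7.05% and 5.33% of all tested genes. *Mpo* had a log2 fold change of 1.40 (SE 0.18, with the block edgeR adjusted p = 0.00955), the Fc receptor gene *Fcgr3* 1.37 (SE 0.36, with the block 0.0332) and *Spi1* 0.67 (SE 0.21, with the block 0.0448). The pan-leukocyte gene *Ptprc* had 0.50 (SE 0.20, with the block 0.0905). The remaining genes were named after their values were seen. *Hoxa9*, a homeobox gene of the MLL-AF9 program, was the gene called as lower (log2 fold change -0.35, with the block edgeR adjusted p = 0.0428), and *Cd34* was the other gene called as higher, from few counts. *Meis1* had -0.16, the receptor gene *Kit* 0.03, the elastase gene *Elane* 0.07 and *Cebpa* 0.17, none called.

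The summed macrophage markers were at 3.04 to 4.56 CPM without and 3.88 to 14.8 CPM with DOX in MLL-AF9-i139, where 4 of 7 genes were tested and 1, the receptor gene *Csf1r*, was called as higher with the block (log2 fold change 1.36, SE 0.46). *Adgre1*, which encodes F4/80, had log2 changes of 2.19, 1.29 and 0.00 in the 3 clones. The other 2 tested markers, named after their values were seen, were *Mertk* with -1.66, -0.88 and 0.20 and *Mrc1* with a log2 fold change of 0.06 (SE 0.75), and *C1qb* had 9 counts in all. The summed mast cell and basophil markers were at 8.08 to 10.4 CPM without and 13.8 to 15.8 CPM with DOX, with 1 of 2 tested genes, *Mcpt8*, called as higher with the block (log2 fold change 0.70, SE 0.16). For T cell, B cell, erythroid and stromal markers, 0 of 3, 0 of 3, 0 of 1 and 0 of 2 tested genes were called in either fit. The part of these cell types in the change of the Ypel members was not tested.

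**Figure D5:**
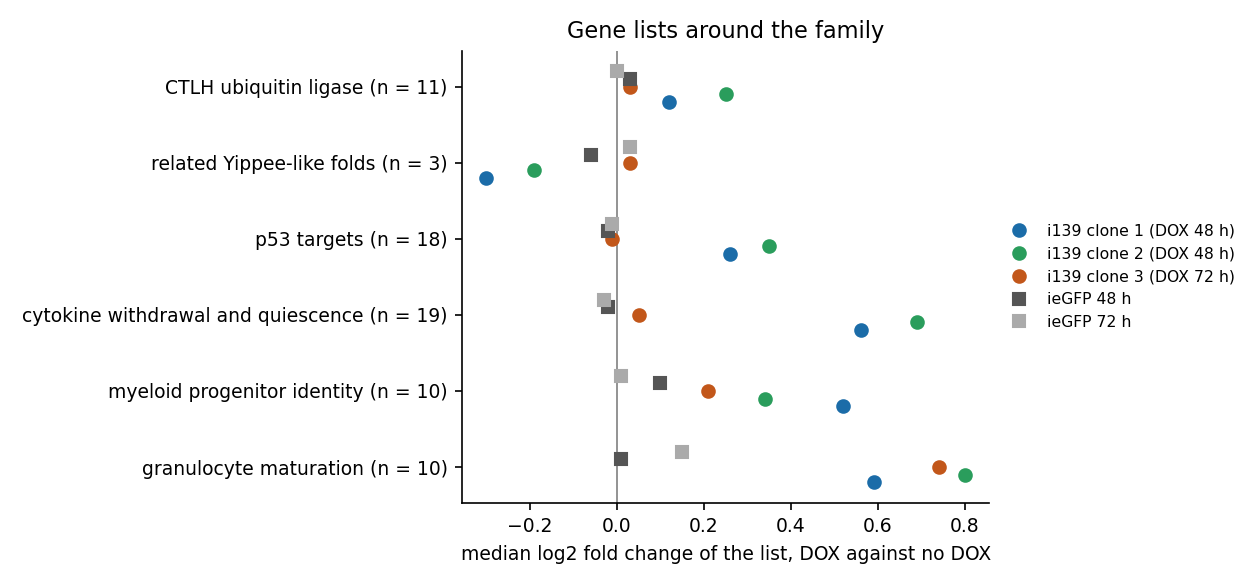
Median log2 fold change with DOX of each gene list, by MLL-AF9-i139 clone (circles) and by MLL-AF9-ieGFP culture (squares), with the number of tested genes of the list. The list of cytokine withdrawal and quiescence is at 0.56 and 0.69 in clones 1 and 2 and at 0.05 in clone 3, whereas the granulocyte list is at 0.59 to 0.80 in all 3.

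The genes whose log2 CPM followed *Ypel3* most closely over the 10 libraries, among 10747 named genes whose log2 CPM averaged at least 1, were *B4galt1* (Pearson's r 0.997), *Inpp5d* (0.996), *Sdr39u1* (0.995), *Cdkn1a* (0.995) and *Gpatch2l* (0.994). *Inpp5d* encodes the phosphatase SHIP1, which restrains cytokine signalling, and *B4galt1* a galactosyltransferase. The size of their change was much smaller than that of *Ypel3*, with log2 changes of 0.49, 0.46 and 0.13 for *B4galt1* and 0.60, 0.64 and 0.17 for *Inpp5d*. These points share clones, and clones 1 and 2 with DOX stand apart from the other 8 libraries, so r mainly sets these 2 libraries against the rest.

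The genes most like *Ypel5* were *Dhrs11* (Pearson's r 0.972), *Lax1* (0.963), *Sertad2* (0.959), *Gm26798* (0.956) and *Hmox1* (0.955). *Lax1*, an adaptor of antigen receptor signalling, had log2 changes of 1.61, 1.50 and 1.60 in the 3 clones. *Hmox1*, the heme oxygenase, had 0.84, 0.88 and 0.55 in MLL-AF9-i139 and 0.70 and 0.32 in MLL-AF9-ieGFP at 48 h and 72 h.

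Between the members themselves, r of log2 CPM over the 10 libraries was 0.94 for *Ypel1* and *Ypel3*, 0.92 for *Ypel2* and *Ypel3* and 0.90 for *Ypel1* and *Ypel2*. *Ypel5* had 0.78 with *Ypel3*, 0.75 with *Ypel1* and 0.63 with *Ypel2*. *Ypel1*, *Ypel2* and *Ypel3* were higher in clones 1 and 2 with DOX than in all other libraries, while *Ypel5* was less set apart there. Values of r without these clones were not computed, and those given describe these libraries only.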

How the data were processed

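RNA was depleted of ribosomal RNA and sequenced from 10 mouse libraries. Per the labels and their processing notes, the authors used FastQC 0.11.8, STAR 2.5.3e, featureCounts 1.6.0 and GRCm38, and deposited raw read counts per gene, which are not normalized. Of the columns in the same table, 14 belong to other samples and were not used. Counts were tested with the quasi-likelihood test of edgeR 4.0.16 (R 4.3.3, TMM, at least 10 counts in total, Benjamini-Hochberg adjustment over all tested genes, threshold 0.05), over the 6 libraries of MLL-AF9-i139, with no block. For MLL-AF9-ieGFP and for the interaction, changes came from 1 fit of 4 groups over 10 libraries. CPM used TMM factors of the 10 libraries, and log2 changes of single clones used a prior count of 2. DESeq2 1.42.0 was an alternative. The scripts were tested on simulated data.

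Libraries of the same clone pair with each other, since deviations from the group means correlated at 0.381, 0.288 and 0.414 in clones 1, 2 and 3 over 19223 genes. Whether the untreated and treated cultures were grown together is not given in the sources used here. In the MLL-AF9-i139 fits, p-values measure the spread between these clones, and with the block the spread of their changes. That spread includes the difference between 48 h and 72 h of DOX. In the fits of all 10 libraries, it also comes from the 48 h and 72 h cultures of 1 MLL-AF9-ieGFP clone. Positions, exon lengths and UTRs came from GENCODE M21 on GRCm38. The members and gene lists were chosen with earlier results of these data known. Genes were named by rule: all members, their nearest and overlapping genes, at most 4 genes per list (called genes first, then the largest change at an average log2 CPM of at least 1) and the 5 genes most correlated with *Ypel3* and with *Ypel5*. Any other gene is stated as chosen after its value was seen, except markers at 0. The macrophage list leaves out 1 gene that is not reported here.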

Additional observations from a re-analysis of the deposited data

How the results depend on the processing

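The clone block moved *Ypel3* to 2.78 and *Ypel5* to 0.61 on the log2 scale in MLL-AF9-i139, both then past the threshold. They also passed with DESeq2 (3.15 and 0.61), with no filter on low counts (3.16 and 0.63) and in the fit of all 10 libraries (3.13 and 0.60), while *Ypel1* and *Ypel2* did not. In these fits, in the same order, 966 of 19223, 454 of 25840 and 717 of 20269 tested genes were called as higher. Over leaving out 1 clone each, MLL-AF9-i139 gave 0.48 to 0.86 for *Ypel1*, 0.66 to 1.10 for *Ypel2*, 2.83 to 3.53 for *Ypel3* and 0.55 to 0.68 for *Ypel5*, and 2.92 to 3.62 for the interaction of *Ypel3*. Without 1 of its 2 time points, MLL-AF9-ieGFP gave -0.05 to 0.14 for *Ypel1*, -0.19 to 0.02 for *Ypel3* and -0.02 to 0.23 for *Ypel5*. Of the alternatives run, all 4 members passed only without clone 3, where 2122 of 18359 tested genes were called as higher. In contrast, *Ypel3* had an edgeR adjusted p of 0.679 without clone 1 and 0.742 without clone 2. The cause was not tested.

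The genes called in MLL-AF9-i139 numbered 12 with the filter of 10 counts in total, 562 without a filter, 6 with at least 10 counts in 3 libraries, 2381 with the clone block, 1556 with DESeq2 and 1234 over 10 libraries, and from 0 (without clone 2) to 3981 (without clone 3) over leaving out 1 clone. In MLL-AF9-ieGFP, 1 gene was called with no filter and 1 with DESeq2, compared with 0. For the interaction, 1 gene was called, compared with 71 with no filter, 0 with at least 10 counts in 2 libraries, 38 with the replicate block, 82 with DESeq2 and 0 to 2011 over leaving out 1 library pair, of which 2011 is without clone 3. The interaction of *Ypel3* passed with no filter (3.21) and without clone 3 (3.62). The block changed no other call of a member.

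In MLL-AF9-ieGFP the sign turned for *Ypel1* without the 72 h cultures and, without the 48 h cultures, for *Ypel3* and *Ypel5*, none of them past the threshold. With the longest transcript as length, the share of the family sum was 7.04% for *Ypel1*, 3.84% for *Ypel2* and 79% for *Ypel5* without DOX, and 4.95% for *Ypel1* and 3.03% for *Ypel2* with DOX. Counts of 69 to 205 in the untreated libraries limit *Ypel2* and *Ypel3*.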
